A study of Mus musculus with 24 samples.

Results

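The pro-apoptotic Bcl2 family genes were 10 genes of the 25239 in the expression table, chosen by symbol, with earlier results of these data known. They are the effectors Bax and Bak1, and the BH3-only genes Bbc3 (Puma), Pmaip1 (Noxa), Bid, Bik, Bad, Bmf, Bcl2l11 (Bim) and Hrk. They were followed in 24 RNA-seq libraries from 6 mouse small cell lung cancer (SCLC) cell lines. Each line grew from a tumour of a mouse of mixed B6J and 129S4vJae background that was flox/flox for both Rb1 and Rbl2, XTR/XTR for Trp53 and carried Rosa26 FlpO-ER; tumours were started with an adenovirus carrying Cre under the CMV promoter, so by design Cre had deleted Rb1 and Rbl2 and set the gene trap in Trp53 in all groups, controls included. In Control cells, given vehicle, the trap was in place and p53 was off. In Restored cells, 4-hydroxytamoxifen (4-OHT) had activated FlpO-ER, which cuts out the trap and returns p53. Either state was also combined with cyclosporin A (CsA), an inhibitor of cyclophilins and, through cyclophilin A, of calcineurin, giving 4 conditions, all sampled at 72 h. The 3 Type D lines are those that die after p53 restoration, by necrosis as the study describes it, and the 3 Type V lines are those that stay viable, so the types were themselves defined by outcome. With 1 library per line and condition, each of the 8 groups held 3 lines, and all errors of levels below are SDs over those 3 lines. Within each type, lines are called 1 to 3. Type D lines 1, 2 and 3 are 4711-1, 4711-18 and 4716-11. Lines 3, 2 and 1 of Type V are 4716-14, 4716-10 and 4711-11.

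Proteins of the Bcl2 family decide whether the outer mitochondrial membrane is breached. Bax and Bak1 are the effectors that form the pores, the guardians Bcl2, Bcl-xL (Bcl2l1), Bcl-w (Bcl2l2) and Mcl1 restrain them, and BH3-only proteins bind the guardians or switch on the effectors directly. Once cytochrome c leaves the mitochondrion it assembles with Apaf1 into the apoptosome, which starts the caspase cascade. Bax, Bbc3 and Pmaip1 are textbook transcriptional targets of p53, whereas Bid and Bad are best known for control after translation, by cleavage and by phosphorylation.

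The upstream sequences of 3 members are shown because p53 restoration is the main contrast of the study: Bax and Bbc3, which were higher in restored cells of both types, and Bmf, which was lower in Type D under CsA. The letters are the 250 bases before an annotated start site, from RefSeq on GRCm38.p6, written 5′ to 3′ on the gene's own strand and in lower case, with any p53 half-site in capitals. The half-site is the p53 binding consensus of 10 bases that reads alike on both strands. Bax lies at chr7:45466899-45467148 on the minus strand, Bbc3 at chr7:16309333-16309582 on the plus strand and Bmf at chr2:118544588-118544837 on the minus strand. In GENCODE M21 the Bax window lies just outside its gene, which ends at 45466898. The other windows lie inside their own genes, Bbc3 at chr7:16308393-16318205 and Bmf at chr2:118528757-118549687. Overlap with exons was not examined.
Bax: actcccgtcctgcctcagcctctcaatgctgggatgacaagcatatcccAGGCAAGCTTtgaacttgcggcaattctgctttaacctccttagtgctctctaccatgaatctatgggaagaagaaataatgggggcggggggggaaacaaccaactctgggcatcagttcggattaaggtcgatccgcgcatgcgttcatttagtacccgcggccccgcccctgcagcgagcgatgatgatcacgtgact
Bbc3: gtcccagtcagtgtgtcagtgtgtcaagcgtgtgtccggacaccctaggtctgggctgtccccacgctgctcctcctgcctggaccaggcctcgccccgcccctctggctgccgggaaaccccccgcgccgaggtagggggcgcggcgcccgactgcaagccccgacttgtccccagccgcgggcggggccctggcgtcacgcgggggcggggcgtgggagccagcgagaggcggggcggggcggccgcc
Bmf: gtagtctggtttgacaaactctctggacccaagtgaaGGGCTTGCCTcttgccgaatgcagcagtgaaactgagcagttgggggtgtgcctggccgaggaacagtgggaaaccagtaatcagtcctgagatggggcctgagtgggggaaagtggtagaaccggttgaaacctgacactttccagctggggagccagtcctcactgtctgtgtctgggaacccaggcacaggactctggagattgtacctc
The Bax half-site began 201 bases before the start, and that of Bmf 213 bases before it, at 1 of 3 annotated Bmf starts. RefSeq windows matched 8 of the 10 members, 14 windows in all, and 2 of them (14.3%) held a half-site, against 7.13% of the 32851 windows of the same length. None of the 3 Bbc3 windows held these letters. The matches describe the letters only.

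Before the members, the targeted gene was examined. Trp53 was at 10.5 to 15.3 TPM (a level per transcript length that sums to 1000000 in each library) in the 12 libraries without restoration and at 181 to 253 TPM in the 12 with it. Cdkn1a, a canonical p53 target, ran from 37.5 to 145 and from 1068 to 2539.9 TPM in the same libraries. Of the deleted genes, Rbl2 still read 4.49 to 20.6 TPM and Rb1 7.36 to 68.8 TPM over the 24 libraries, and Rb1 rose by 1.60 in Type D and 1.97 in Type V on the log2 scale. The table gives 1 value per gene, so the deleted exons could not be looked at. Of 7 neuroendocrine markers, 4 passed the filter. Chga was listed at 0 in all 24 libraries, Neurod1 never passed 0.0954 TPM and Calca never passed 0.105 TPM. Syp was at 0.109 to 1.41 TPM and Ncam1 at 4.46 to 27.3 TPM, with overlap between the types. Insm1 was at 0 to 3.39 TPM in Type D and 1.13 to 49.6 TPM in Type V, and Uchl1 at 0 to 2.66 TPM against 3.12 to 40.9 TPM. Uchl1 was called lower in Type D than Type V in Control, Restored and Restored + CsA, and called lower with restoration in Type V; its part in the results below was not tested. Yap1, a marker of another SCLC subtype, was at 93.5 to 571 TPM. In bulk RNA, fewer cells of a kind and less RNA per cell cannot be told apart, and TPM is a share of the total.

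Bax was the most abundant member and rose with p53 in every line of both types. In Type D lines 1, 2 and 3 it stood at 349.7, 387 and 298 TPM in Control and at 786, 805 and 728 TPM once p53 was restored. In Type V it stood at 352, 349 and 327 TPM in Control, against 981, 764 and 789 TPM in Restored. The lowest restored library lay far above the highest control library in both types, and there was no overlap. The log2 difference was 1.17 ± 0.124 (SE, here and for all log2 differences, on the log2(TPM + 1) scale) in Type D and 1.29 ± 0.124 in Type V, with adjusted p = 2.87e-06 and 1.44e-06. The difference of this response between the types was -0.12 (adjusted p = 1), with a 95% interval of -0.49 to 0.25. Bax alone made up 41.5 to 68.3% of the summed TPM of the 10 members across the libraries.

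Bak1, the other effector, went the other way in Type V. It was at 192, 141 and 149 TPM in Control Type V lines and at 129, 74.1 and 71.4 TPM after restoration, lower in 3 of 3 lines. In Type D it was at 84.5, 90.9 and 78.6 TPM in Control and 75.5, 88.6 and 66.9 TPM in Restored, with overlapping values. The change in Type V was -0.85 ± 0.205 (adjusted p = 0.0109), which passed the p threshold but not the 1 log2 unit required here for a call, and in Type D it was -0.14 (adjusted p = 0.762). Control Type D lines held less Bak1 than Control Type V lines, by -0.90 ± 0.205 (adjusted p = 0.00598), again short of 1 log2 unit. In Restored lines this gap was -0.20 (adjusted p = 0.552), with overlapping values.

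**Figure D1:**
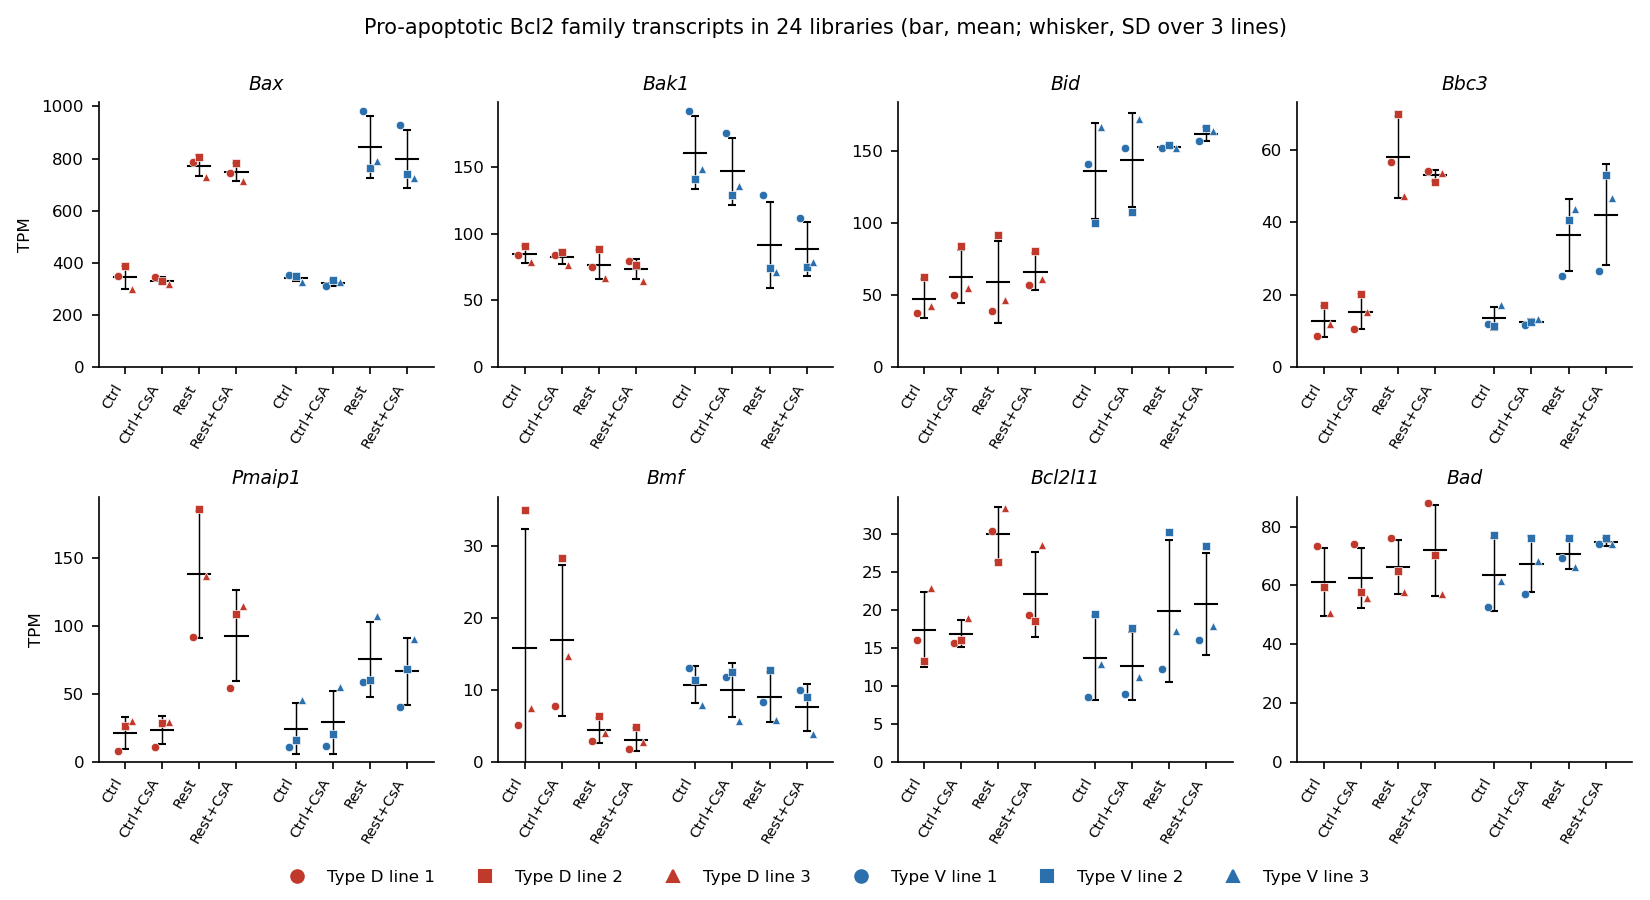
TPM of the 8 members in the fit, in each of the 24 libraries; symbols are lines 1 to 3 of Type D (red) and Type V (blue), the bar is the mean and the whisker the SD over 3 lines, cut at 0 for Bmf, and each axis starts at 0. Bax, Bbc3 and Pmaip1 are higher with p53 restored (Rest) than in control (Ctrl) in each line of both types, Bid is higher in every Type V library than in any Type D library, and Bad stays between 50.6 and 88.2 TPM throughout.

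Among the BH3-only genes, Bbc3 and Pmaip1 had the largest responses. Bbc3, whose product binds every guardian, was at 8.68, 17.2 and 11.8 TPM in Control Type D lines and 56.6, 69.9 and 47.2 TPM after restoration. In Type V it was at 11.8, 11.3 and 17.1 TPM and 25, 40.7 and 43.6 TPM. The ranges were well apart in both types, and the differences were 2.15 ± 0.287 (adjusted p = 3.64e-05) and 1.36 ± 0.287 (adjusted p = 0.00405). The Type V call was lost without line 2 (1.16, adjusted p = 0.07). Restored Type D lines all lay above restored Type V lines, by 0.68 (unadjusted p = 0.0294, adjusted p = 0.122), and the difference between the 2 responses was 0.79 with an interval of -0.06 to 1.64 (adjusted p = 1).

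Pmaip1, a sensitizer that mainly neutralizes Mcl1, was at 7.73, 26.5 and 29.7 TPM in Control Type D lines and 92, 186 and 137 TPM after restoration. In Type V it was at 10.7, 15.9 and 45.6 TPM and 58.8, 59.9 and 107 TPM. Line 3 of Type V began highest and line 1 of Type D lowest, and every line was higher after restoration. The difference was 2.78 ± 0.607 in Type D (adjusted p = 0.00429), which was lost without Type D line 2 (adjusted p = 0.0546). In Type V it was 1.81 ± 0.607 with adjusted p = 0.067, and called once the cell line was entered as a block (adjusted p = 2.34e-05). The 2 responses differed by 0.98, with an interval of -0.82 to 2.77.

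Bmf and Bcl2l11 are BH3-only genes often placed under FoxO and stress-kinase control. Bmf was at 5.07, 35 and 7.39 TPM in Control Type D lines and 2.88, 6.27 and 3.95 TPM after restoration, lower in each line but with overlapping groups, since line 2 began far above the others. The difference was -1.24 ± 0.564 (adjusted p = 0.175) and was called only with the cell line block (adjusted p = 0.00114). In Type V the 3 lines did not move together, at 13, 11.3 and 7.93 TPM before and 8.34, 12.7 and 5.79 TPM after. Bcl2l11 was at 16.1, 13.3 and 22.9 TPM and 30.5, 26.4 and 33.5 TPM in Type D, by 0.78 (adjusted p = 0.14), and at 8.53, 19.5 and 12.9 TPM and 12.2, 30.3 and 17.3 TPM in Type V, by 0.49 (adjusted p = 0.442). Its value was higher in all 6 lines, and neither difference was called in any setting that was tried. With the cell line block, adjusted p was 4.17e-05 in Type D and 0.00237 in Type V. Both then passed the p threshold but not the 1 log2 unit required for a call.

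Over the 8 members in the fit, 3 were called higher and 0 lower in Type D, where 6.93% of the 14104 genes tested were called, 4.49% of them as higher and 2.44% as lower. In Type V, 2 were called higher and 0 lower, where 5.29% of genes were called, 3.39% as higher and 1.9% as lower. The median difference over these members was 0.51 in Type D and 0.34 in Type V, against 0.0749 and 0.0473 over all genes. For the difference of the response between types, 0 of the 8 members were called, where 0.0284% of genes were; by limma, 1 member passed an unadjusted p under 0.05, and with the cell line block 0 were called, although Bak1 then reached adjusted p = 0.00413 at 0.70.

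**Figure D2:**
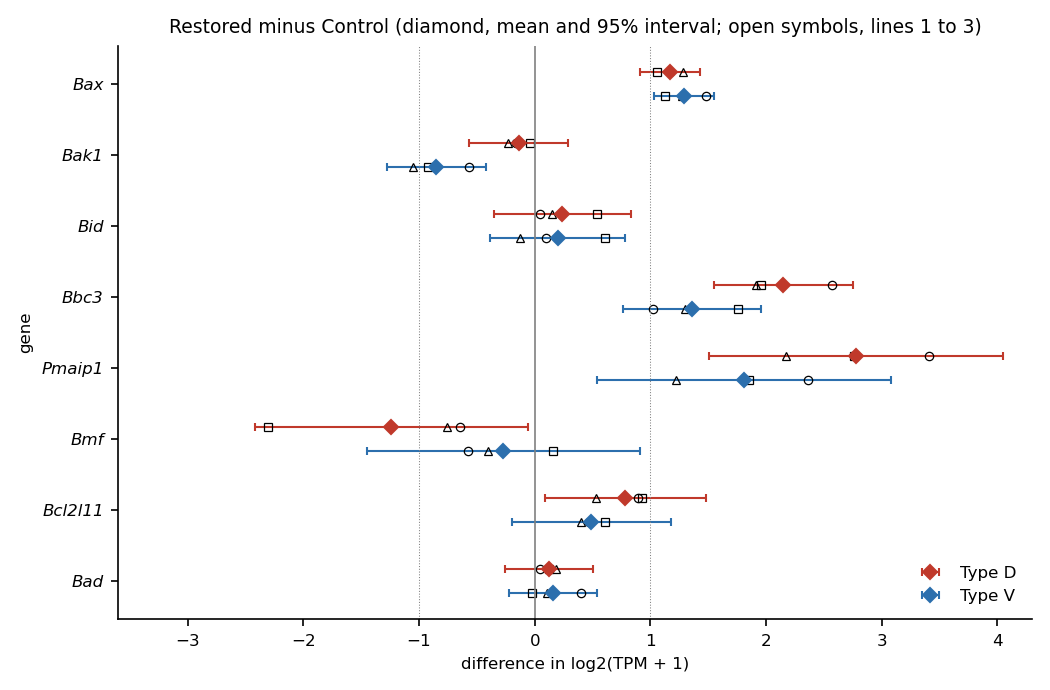
Restored minus Control difference in log2(TPM + 1) for the 8 members in the fit, Type D in red and Type V in blue; diamonds are the fitted mean with its 95% interval, open circles, squares and triangles are lines 1, 2 and 3, and dotted lines mark 1 log2 unit either way. Bax, Bbc3 and Pmaip1 lie to the right in both types, at 1.17, 2.15 and 2.78 in Type D, and Bak1 lies to the left in Type V at -0.85.

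Bid was the one member that was called between the types. Its product, cleaved by caspase 8 to tBid, links death receptors to the mitochondrion. It stood at 37.5, 62.8 and 42.1 TPM in Control Type D lines and 141, 100.4 and 167 TPM in Control Type V lines, and the highest Type D library of all 12 (91.7 TPM) was below the lowest Type V library (100.4 TPM). The difference was -1.50 ± 0.281 in Control (adjusted p = 0.00131), -1.46 ± 0.281 in Restored (adjusted p = 0.00176) and -1.30 ± 0.281 in Restored + CsA (adjusted p = 0.0047). In Control 1 of 8 members was called, where 8.83% of genes were (4.42% higher in Type D, 4.41% lower). In Restored it was again 1, where 9.44% were (4.45% higher, 4.99% lower), and in Restored + CsA 1, where 7.82% were (3.76% higher, 4.06% lower). p53 did not move it by an amount that passed the test, at 0.24 in Type D and 0.20 in Type V. Fitted on the 2 Restored groups alone, adjusted p was 0.0632. Bcl2l13, which overlaps Bid on the opposite strand, was at 51 to 71.4 TPM in Type D and 37.8 to 57.5 TPM in Type V, with overlap. In Control Type D lines it was at 58.8, 71.4 and 59.1 TPM, highest in line 2 as Bid was. In Control Type V lines it was at 57.5, 50.9 and 47.8 TPM, highest in line 1, while Bid was highest in line 3. Whether strand was used in counting is not stated, and the part of this overlap in the Bid result was not tested. The summed level of 4 epithelial markers ran the other way in Control, at 6695 to 11816 TPM in Type D and 663 to 1577 TPM in Type V, of which 3 and 2 markers reached 1 TPM in all lines and Epcam never passed 4.57 TPM. Of 4 mesenchymal markers, 2 ran the same way as Bid and Bak1 and were called lower in Type D in Control: over all libraries of a type, Col1a1 was at 0.0592 to 1.55 TPM in Type D and 0.698 to 401 TPM in Type V, and Col1a2 at 0 to 0.0673 and 6.36 to 194 TPM. The summed mesenchymal level, mostly Vim and Fn1, was 3204 to 5637 TPM in Control Type D and 4794 to 6327 TPM in Control Type V. Col1a2 was also called lower with restoration in Type V, as Bak1 was lower there, from 19, 80.7 and 170.2 TPM to 6.36, 11.6 and 6.89 TPM. The part of these markers in the Bid and Bak1 results was not tested.

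Bad, a BH3-only protein held in check by phosphorylation, was nearly flat. Its 24 libraries ran from 50.6 to 88.2 TPM, with a difference of 0.12 in Type D (95% interval -0.26 to 0.50) and 0.16 in Type V (-0.22 to 0.54). Its closest companion in level over the 24 libraries was Gpr137, which overlaps it on the opposite strand, at r = 0.828. Bik and Hrk were barely detected. Bik was at 0 in 10 libraries and reached 1.13 TPM in 1, and Hrk was at 0 in 13 and never passed 0.267 TPM, so neither entered the fit.

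CsA given alone brought no call among the members. Among 8 members and both types, 0 were called by limma, 0 with the cell line block, 0 passed an unadjusted p under 0.05, and 0% of genes in either type were called. The largest values were Bid at 0.40 in Type D (adjusted p = 1), higher in 3 of 3 lines, and Bmf at 0.38 (adjusted p = 1), higher in 2 of 3. Bax was at 346, 331 and 318 TPM in Type D with CsA and 310.4, 333 and 328 TPM in Type V with CsA, inside or close to the Control ranges.

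Adding CsA to restored Type D cells gave values that overlapped those without it for each of the 8 members in the fit. The share of all genes with overlapping groups was not counted. Pmaip1 was at 54, 109 and 115 TPM in Restored + CsA, lower than in Restored in 3 of 3 Type D lines, by -0.59 (95% interval -1.86 to 0.68, adjusted p = 1; 0.3 with the cell line block). Bcl2l11 was at 19.3, 18.5 and 28.6 TPM, lower in 3 of 3 lines by -0.45 (interval -1.14 to 0.24, adjusted p = 1; 0.0961 with the block). Bmf also lay lower in 3 of 3 Type D lines, by -0.43. In Type V only Bid had groups that did not overlap. It was at 157, 166 and 164 TPM with CsA against 152, 154 and 152 TPM, by 0.09 (interval -0.50 to 0.68). In both types 0 of 8 members were called, where 0.0142% of genes were called in Type D and 0% in Type V, and 0 members passed an unadjusted p under 0.05. Bax was also lower in 3 of 3 lines of each type, by -0.05 in Type D (interval -0.31 to 0.21) and -0.08 in Type V (-0.34 to 0.18).

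**Figure D3:**
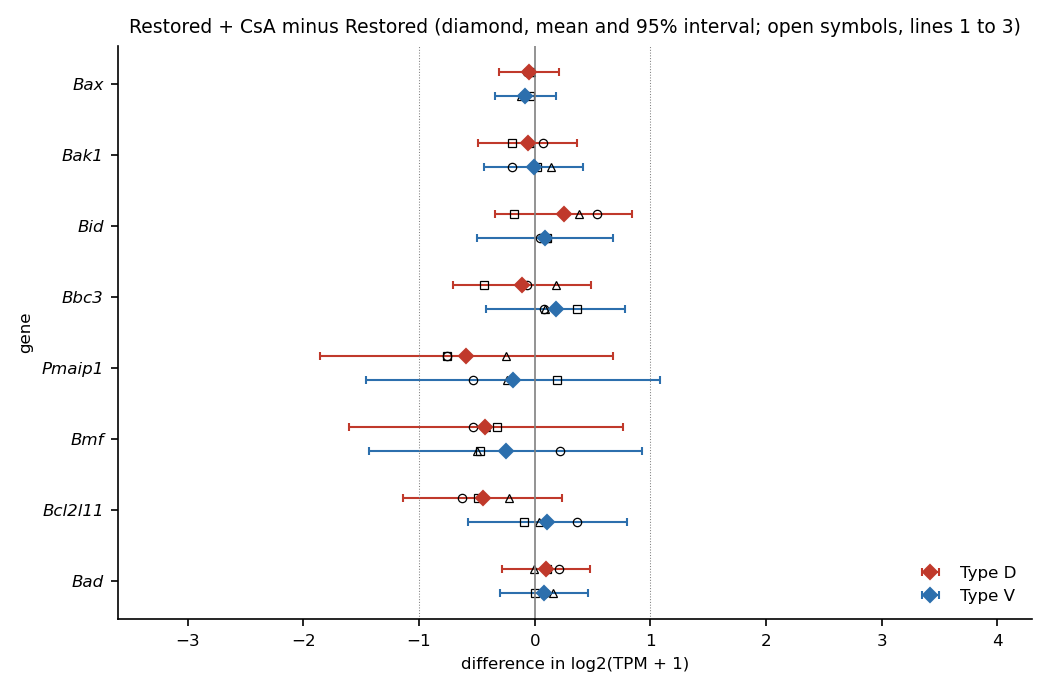
Restored + CsA minus Restored difference in log2(TPM + 1), with the same symbols as the plot of the restoration response. Most intervals span 0 by a wide margin; in Type D the Pmaip1, Bmf and Bcl2l11 means lie at -0.59, -0.43 and -0.45, and none was called.

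With CsA present throughout, restoration was compared with CsA-treated controls. Bax rose by 1.17 in Type D and 1.29 in Type V, and Bbc3 by 1.77 and 1.63. Pmaip1 rose by 2.01 in Type D (adjusted p = 0.0437) and differed by 1.39 in Type V (adjusted p = 0.201; 0.000291 with the block). Bmf fell by 2.04 in Type D (adjusted p = 0.027), from 7.78, 28.3 and 14.7 TPM to 1.69, 4.77 and 2.71 TPM, and the call was lost without line 1 (adjusted p = 0.0564) or line 3 (adjusted p = 0.221). The Pmaip1 call in Type D was lost without any 1 of the 3 Type D lines, with adjusted p from 0.115 to 0.238, and also without Type V line 2 (0.0695), with no filter (0.0662), with median-ratio scaling (0.0625), with quantile normalization (0.0662) and on only the groups compared (0.0669). In all, 3 members were called higher and 1 lower in Type D, where 5.41% of genes were called (3.53% higher, 1.88% lower), and 2 higher and 0 lower in Type V, where 4.61% were (2.84% higher, 1.77% lower).

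The order of the group means followed from these values. For Bax the 4 restored groups came first, from 845 ± 119 TPM in restored Type V to 748 ± 34.8 TPM in Type D Restored + CsA, then a clear gap, then the 4 others between 345 ± 44.6 and 324 ± 11.7 TPM, with neighbours overlapping inside each set. Bbc3 fell into the same 2 sets, led by restored Type D at 57.9 ± 11.4 TPM. For Pmaip1 restored Type D was highest at 138 ± 46.9 TPM, and all neighbours in the order overlapped. For Bid the 4 Type V groups, at 136 to 162 TPM, came before the 4 Type D groups, at 47.5 to 66.2 TPM, with no overlap between the sets.

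The genes whose levels ran most nearly in parallel over the 24 libraries were found by Pearson's r and are given as a description, since all points share libraries and the restoration contrast. For Bax they were Pidd1 (r = 0.987), Fbxw9 (0.986) and Trim11 (0.981). For Bbc3 they were Blcap (0.955), Gna15 (0.95) and Pdcl (0.943), and for Pmaip1 Bahd1 (0.93), Zfand3 (0.914) and Mark4 (0.913). The nearest to Bak1 was Col3a1 (0.934), to Bid Pgrmc1 (0.955) and to Bcl2l11 Pold4 (0.908).

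Most guardians in the fit were also higher with restoration. Of 8 anti-apoptotic genes, 4 passed the filter, and 0 of them were called in Type D and 1 in Type V. Over all genes tested, 6.93% and 5.29% were called. Their median difference was 0.70 in Type D and 0.55 in Type V, against 0.51 and 0.34 over the members. In Type D, Bcl2l2 went from 17.6, 19.8 and 15.2 TPM to 31.3, 42.8 and 27 TPM. Mcl1 went from 152, 152 and 156 TPM to 225, 248 and 196 TPM there. Bcl2 was lower, from 4.32, 10.1 and 7.64 TPM to 4.15, 6.88 and 7.04 TPM. Bcl2l1 was at 30.9, 77.1 and 89 TPM in Control Type V lines and 122, 132 and 209.7 TPM in Restored, higher by 1.31 ± 0.399 (adjusted p = 0.0415), a call that was lost without any 1 of the 6 lines, with no filter (adjusted p = 0.0603) and with median-ratio scaling (adjusted p = 0.0609). In Type D it went from 87.1, 88.6 and 92.9 TPM to 149.8, 197 and 147 TPM, by 0.86 (adjusted p = 0.185). The summed TPM of the 10 members was 605 ± 78 in Control Type D and 1206 ± 117 in Restored Type D, and in Type V 765 ± 34.6 and 1300.1 ± 119. The anti-apoptotic sum was 268 ± 6.03 TPM in Control and 427 ± 61.1 TPM in Restored for Type D. For Type V it was 279 ± 26.8 and 439 ± 92.1 TPM. Their ratio was 2.26 ± 0.287 and 2.83 ± 0.137 in Type D, and 2.76 ± 0.327 and 3.05 ± 0.654 in Type V. Restored Type V line 3, at 2.31, was below its own Control value of 2.61 and below those of lines 1 and 2, at 3.14 and 2.53. These sums rest mostly on Bax, Mcl1 and Bcl2l1 and carry no test.

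Downstream of the membrane, 1 of 8 apoptosome and caspase genes was called higher in each type, with 0 lower. Over all genes tested, 4.49% were called higher with restoration in Type D and 3.39% in Type V. Apaf1, the scaffold of the apoptosome, was at 13.7, 17.1 and 17.3 TPM in Control Type D and 71.8, 67.7 and 72 TPM in Restored, by 2.08 ± 0.198, and by 1.65 ± 0.198 in Type V.

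**Figure D4:**
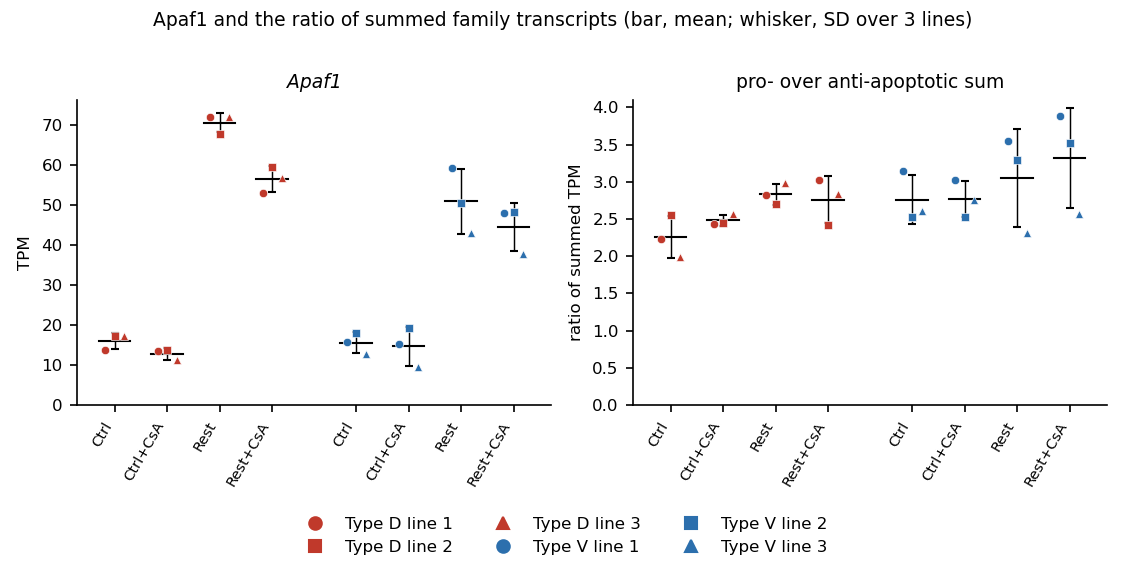
TPM of Apaf1 (left) and the ratio of the summed TPM of the 10 members to that of the 8 anti-apoptotic genes, by group and line, with bars for the mean and whiskers for the SD over 3 lines. Apaf1 is higher in every restored library than in any other; the ratio overlaps between most groups.

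Among 8 more distant Bcl2 relatives, 0 were called with restoration in either type (with the cell line block, Bok was called lower in Type D, at -1.09 and adjusted p = 0.000779), and 3 were called in Control with the higher level in the lines that die: Bok by 2.07 ± 0.582, Bcl2l14 by 2.21 ± 0.495 and Bcl2l15 by 3.34 ± 0.425. In Control, 4.42% of all genes tested were called higher in Type D. Bok, an effector-like relative, was at 47.9 to 178 TPM over the Type D libraries and 9.41 to 59.7 TPM over the Type V ones. Of the 4 outer membrane partners (Vdac1, Vdac2, Vdac3 and Mtch2), 0 were called in any of these comparisons. Of 7 transcription factors tested that are known to act on BH3-only genes, Ddit3 was called in Type D, by 1.79 ± 0.473 (adjusted p = 0.0159), and lost without line 1 (adjusted p = 0.117) or line 2 (adjusted p = 0.112). In Type V Ddit3 was at 52.2, 29.7 and 39.6 TPM in Control and 64.3, 144 and 55.4 TPM in Restored, higher in 3 of 3 lines by 1.00 (adjusted p = 0.219), and it was called there with the cell line block (adjusted p = 0.0375). The difference of its response between types was 0.79 (adjusted p = 1). Foxo3 was called in Type V, by 1.57 ± 0.415 (adjusted p = 0.0191), and lost without any 1 of the 3 Type V lines; in Type D it differed by 1.14 and was called only with the cell line block (adjusted p = 3.44e-05). Trp63, a p53 relative, was lower in Type D than in Type V by -3.34 ± 0.763 in Control (adjusted p = 0.00619), at 0 to 0.278 TPM against 1.62 to 37.7 TPM over the types' libraries.

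Leukocyte markers other than Cd68, and endothelial markers, stayed near the floor. Of 4 leukocyte markers, Ptprc never passed 0.154 TPM and Cd3e was listed at 0 in all libraries, while Cd68, which many cell types express, was at 5.6 to 11.5 TPM without restoration and 16.1 to 55.3 TPM with it. The summed level of the list was 6.96 to 11.1 TPM in the Control groups and 16.2 to 56 TPM in the Restored groups, so it moved with Bax, Bbc3 and Pmaip1, and nearly all of it was Cd68; its part in those results was not tested. Of 3 endothelial markers, 0 passed the filter.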

How the data were processed

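RNA was measured in 24 libraries, 1 per cell line and condition, in 8 groups of 3 lines. Per the study's methods and the labels, libraries came from a stranded mRNA kit sequenced as single-end reads, and kallisto and HISAT2 are both named, so which of them made the table is not given in the sources used here. The builds are named as mm10 and GRCm39, which are different assemblies. The authors deposited TPM values, 25239 genes by 24 libraries, each library summing to 1000000; read depth is unknown, and no interval for counting error can be given.

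Genes at 1 TPM or more in at least 3 libraries (14104) were fitted on log2(TPM + 1) with limma 3.58.1 in R 4.3.3 (trend on the mean, 8 group means, all libraries sharing 1 estimate of spread), and p-values were adjusted by Benjamini-Hochberg over all genes tested. A gene was called at adjusted p under 0.05 and at least 1 log2 unit. Differences on this scale understate changes of low genes. The fit was tried on simulated data for p53 restoration in Type D only. Its outcome is not reported here, and comparisons between types were not simulated. Tried besides were 0.1 as pseudocount, no filter, a minimum of 5 TPM, median-ratio scaling, quantile normalization, the cell line as a block, only the groups compared, and each line left out. Lines are shared between conditions, as the labels give them, so the block is a paired analysis. Residuals of the same line correlated at 0.599 to 0.929 over 36 pairs. Over 72 pairs of different lines of the same type in different conditions, the values were -0.675 to 0.0438. Residuals were taken from means of 3 lines, which pushes the latter values below 0, so they are no yardstick for the former. Where the block changes a call that is reported, it is given beside the result. Each line is 1 tumour culture. Without the block, p-values set a difference against the spread between lines of a type, but take the 24 libraries as independent. The 4 libraries of a line are not, so for Type D against Type V each of the 6 lines counts more than once in that spread. With the block, p-values measure the spread of changes within lines. Which lines came from the same mouse is not stated in the labels.

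The members, the pathway and marker lists and the tests were chosen with earlier results of these data known. All 10 members were followed; of the pathway lists, genes called with restoration, in the difference between types or between types in Control were named, and the others counted; likeness was Pearson's r, the nearest gene per member and the nearest 3 for Bax, Bbc3 and Pmaip1. A few genes of the lists and of the nearest genes are not reported here. Sequences are RefSeq, and gene overlaps are from GENCODE M21, both on GRCm38. In it Bax overlaps Gm45808 on the same strand, and Bak1, Bid and Bad overlap Ggnbp1, Bcl2l13 and Gpr137 on the opposite strand. Figures were drawn with matplotlib.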

Additional observations from a re-analysis of the deposited data

Results flagged for a closer look

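Among the members and the gene lists described here, the restoration response of 5 genes differed between Type D and Type V at adjusted p under 0.05. The test was of the difference itself, passed in the fit with the cell line as a block and not in the fit without it. Over all genes the block fit called 344 of the 14104 tested. That count also asks for 1 log2 unit and the choice of the 5 genes did not, so the thresholds differ. Type D minus Type V was 0.70 for Bak1 (adjusted p = 0.00413), with Bak1 at -0.85 after restoration in Type V and at -0.14 in Type D. It was 0.70 for Trp63 (adjusted p = 0.0456), which was nearly undetected in Type D. Both are short of the 1 log2 unit required for a call. It was 1.01 for Mdm2 (adjusted p = 0.00746), and among the markers 2.01 for Uchl1 (adjusted p = 0.00626) and 2.85 for Col1a2 (adjusted p = 0.0149), which were low in Type D in every condition. No member had all 3 Type D lines moving one way and all 3 Type V lines the other, in restoration or in either CsA contrast. Groups of 3 lines are too small for a check of single outlying libraries.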

How the results depend on the processing

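With the cell line as a replicate block, 1 member (Bmf) was called lower with restoration in Type D, against 0 without it, and Pmaip1 was called in Type V with and without CsA; the block changed no other member call. Over all genes the block gave 1582 calls in place of 977 in Type D, 1222 in place of 746 in Type V, 344 in place of 4 for the difference between types, 18 in place of 2 for CsA added to restored Type D, and under CsA 1366 in place of 763 and 1124 in place of 650. On only the groups compared, samples are fewer, and each line enters a comparison between types only once. Members called higher were then 1 in place of 2 in Type V, with and without CsA. Members called lower were 0 in place of 1 between restored types (Bid) and 0 in place of 1 in Type D under CsA (Bmf). In Type D under CsA, members called higher were 2 in place of 3 (Pmaip1 lost), and all-gene calls were 717 in place of 763. All-gene calls were 291 for Type V and 276 for Type V under CsA. For Type D against Type V they were 631 in place of 1246 in Control, 490 in place of 1331 in Restored and 598 in place of 1103 in Restored + CsA. Leaving out 1 line gave 1 to 3 members called higher in Type V and 0 to 1 called lower in Type D under CsA. Over all 14104 genes tested, 350 to 509 were then called higher in Type V and 178 to 325 lower in Type D under CsA. Median-ratio scaling moved the summed TPM of the members in Type D Control + CsA from 612 to 656. It also moved the median of all genes for Type D minus Type V in Control from -0.121 to -0.0178, with Bid at -1.39 and Bak1 at -0.79 there. For p53 restoration within Type D, quantile normalization lowered the share of called genes that were higher in Restored from 64.8% to 54.2%. For restoration under CsA in Type D this share went from 65.3% to 53.5% (53.9% with median-ratio scaling). Among the 42 member differences of at least 0.3 log2 units or with adjusted p under 0.05, 534 values under alternatives held 514 on the same side of the call, 16 that lost it, 4 that gained it and 0 that changed sign; of 54 smaller ones, 21 changed sign under at least 1 alternative, none above 0.20 in size. Causes were not tested. TPM carries no depth, so low members (Bik, Hrk, Bmf) cannot be given counting errors.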
